A study of Mus musculus with 8 samples.

Results

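Transcription factor genes that mark Müller glia or take part in their return to a progenitor-like state were followed in retina of rd10 mice: Sox9, Sox2, Lhx2, Hes1, Hes5, Nfia, Nfib, Nfix and Pax6. These 9 members were taken by gene symbol from a table of 54532 genes, and each symbol matched 1 row. The matching used the symbol alone. Retinas had been given small intracellular vesicles (sIVs, 4 libraries, numbered 2 to 5 in their titles) or PBS, read here as phosphate-buffered saline (4 libraries, numbered 1 to 4). All 8 libraries share the rd10 background, in which a mutation of the rod phosphodiesterase gene Pde6b leads to loss of rods and then cones. Vesicle source, dose and route, and the mice's age, sex and time of sampling, are not given in the sources used here. Whether each library is 1 animal is not said in the labels. Each p-value therefore reflects variation among libraries, which may be technical.

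Müller glia span the retina and support its neurons. They arise late from retinal progenitors and keep several progenitor transcription factors, among them Sox2, Pax6 and Lhx2. Sox9 is the nuclear marker of these cells, Hes1 and Hes5 are repressors that Notch signalling switches on, and the nuclear factor I genes Nfia, Nfib and Nfix restrict mouse Müller glia from returning to a neurogenic state. In fish, Müller glia re-enter the cell cycle after injury and make neurons, whereas in the mouse they mostly become reactive instead.

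Of the 9 genes, Sox9 and Sox2 were the ones whose sIVs libraries all lay above every PBS library, at fitted folds of 1.56 and 1.53. Nfib and Nfix were high in sIVs libraries 3 and 4 only, Lhx2 and Pax6 had fitted folds of 1.01 and 1.03, and Hes5 was the single member with a negative fold change. No member passed the edgeR quasi-likelihood test after Benjamini-Hochberg adjustment over 17725 genes (0 of 9, against 0% of all genes tested). At an unadjusted p under 0.05 there were 4 of 9 members, Sox2, Sox9, Hes5 and Nfib, against 15.2% of all genes tested. DESeq2 called 1 member, Sox2 (adjusted p = 0.0188), against 2.87% of its genes, 2.43% higher and 0.438% lower. Limma-voom called 0 members. With no low count filter edgeR called 0 members, against 0.450% of all genes, 0.430% higher and 0.0207% lower. Without sIVs libraries 3 and 4 it called 0 members, against 0.0164%, 0.0110% higher and 0.00548% lower.

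Promoters are shown for Hes5, the member of negative fold change and a direct target of the Notch-bound factor RBPJ, and for Sox2, the member of smallest p. Each is the 250 bases before the start given by RefSeq (GRCm38.p6), 5′ to 3′ on the plus strand. Hes5 is at chr4:154960673-154960922 and Sox2 at chr3:34649745-34649994, where the RefSeq start lies upstream of the start in the deposited gene table. Capitals mark the letters GTGGGAA or their reverse complement TTCCCAC, the core that RBPJ recognises.
Hes5: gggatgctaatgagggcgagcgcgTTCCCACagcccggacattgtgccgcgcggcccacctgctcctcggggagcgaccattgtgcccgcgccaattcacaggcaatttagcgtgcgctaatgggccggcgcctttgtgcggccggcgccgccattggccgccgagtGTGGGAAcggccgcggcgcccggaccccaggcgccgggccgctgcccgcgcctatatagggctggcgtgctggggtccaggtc
Sox2: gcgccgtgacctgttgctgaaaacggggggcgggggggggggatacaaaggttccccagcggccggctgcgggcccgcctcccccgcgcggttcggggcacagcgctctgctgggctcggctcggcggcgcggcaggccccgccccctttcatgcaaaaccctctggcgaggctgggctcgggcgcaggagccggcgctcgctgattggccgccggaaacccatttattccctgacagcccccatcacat
The Hes5 window holds the core in both orientations, beginning 226 and 83 bases before the start, and the Sox2 window holds none. Of 27025 promoters of this length, 5.41% hold the core at least once and 0.170% at least 2 times, on either strand. The members Sox2, Lhx2, Hes5, Nfia, Nfix and Pax6 matched the RefSeq table (6 of 9), and Hes5 was the 1 of these 6 with the core. A match of letters is a description and shows no binding in these retinas.

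Library totals ran from 14640235 to 16989737 counts, and member counts from 20 for Hes5 in sIVs library 4 to 8270 for Pax6 in the same library. The libraries of the sIVs group were not alike. By chi-square per gene, sIVs library 2 lay as close to PBS library 1 (3.68) as the closest PBS pair lay to each other (3.88), whereas sIVs libraries 3 and 4 were 4.74 apart and at least 55.8 from any PBS library. Over 12 rod markers, the median log2 CPM (CPM being counts scaled by the TMM-adjusted library size) relative to the PBS mean was -1.88 and -1.91 in sIVs libraries 3 and 4. It was 0.07 and -0.26 in sIVs libraries 2 and 5 and -0.14 to 0.10 in PBS. In bulk retina, fewer cells of a type and less RNA per cell cannot be told apart. Of the 7 marker lists for cells other than glia and photoreceptors, none had a defining marker at 0 in all libraries. Microglial markers summed to 476 and 589 CPM in sIVs libraries 3 and 4, to 226 and 177 CPM in sIVs libraries 2 and 5, and to 172 to 288 CPM in PBS. Endothelial markers had list medians of 0.21 and 0.41 in sIVs libraries 3 and 4 relative to the PBS mean, on the log2 scale, against -0.06 to 0.14 in PBS. Their summed level was mostly that of Kdr, a growth factor receptor gene named after its values were seen, at 514 and 506 CPM in these libraries and 240 to 278 CPM in PBS. Pigment epithelium markers summed to 22.3 to 104 CPM in sIVs and 52.7 to 179 CPM in PBS. The part of these lists in the values below was not tested.

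Per gene length, the order of levels in PBS ran from Pax6 down to Nfib, on the deposited FPKM scale (fragments scaled by gene length and library size). Pax6 stood at 34.2 ± 1.56 FPKM and Sox2 at 16.3 ± 1.35 FPKM (SD, n = 4), with no overlap between them. Nfix followed at 12.4 ± 0.572 FPKM and Lhx2 at 11.2 ± 0.897 FPKM, and their libraries overlapped. Sox9 stood at 6.77 ± 0.488 FPKM and Hes1 at 6.59 ± 1.21 FPKM, again overlapping. The lowest were Nfia at 2.97 ± 0.254 FPKM, Hes5 at 2.87 ± 1.21 FPKM and Nfib at 2.66 ± 0.124 FPKM, which could not be ordered beyond their spread. In sIVs the first 6 places were the same, but Nfib stood above Nfia, at 3.77 ± 1.34 against 3.28 ± 0.657 FPKM, with overlap, and Hes5 was last at 1.41 ± 0.691 FPKM, below every Nfia library. Pax6 is also made by amacrine, horizontal and ganglion cells and Sox2 by some amacrine cells, so their places in bulk retina are not those of Müller glia alone. For the other members too, bulk retina does not show which cells made the RNA.

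**Figure D1:**
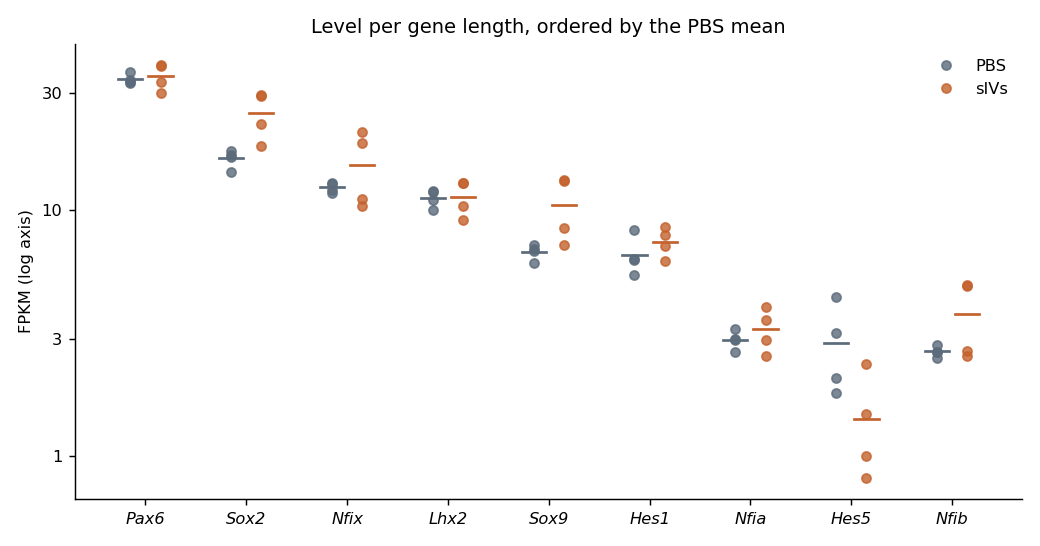
FPKM of the 9 genes on a log axis, ordered by the PBS mean. Points are the 4 libraries of each group and bars the group means. Pax6 is the highest gene in both groups, and Hes5 has group means of 2.87 FPKM in PBS and 1.41 FPKM in sIVs.

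Sox9, an HMG-box gene needed for Müller glia to form, lies on chromosome 11 (ENSMUSG00000000567, 112782224 to 112787760, plus strand, GRCm38). It stood at 29.8, 28.3, 28.9 and 25.3 CPM in PBS libraries 1 to 4 and at 35.0, 55.4, 54.7 and 30.1 CPM in sIVs libraries 2 to 5. The groups did not overlap, but sIVs library 5 lay just above the highest PBS library, and the large values were those of sIVs libraries 3 and 4. The log2 fold change was 0.64 ± 0.19 (SE, 95% interval 0.22 to 1.07, edgeR adjusted p = 0.196). Without sIVs libraries 3 and 4 it was 0.21 (edgeR adjusted p = 0.417).

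Sox2, the related HMG-box gene that keeps progenitors and Müller glia from differentiating further, lies on chromosome 3 (ENSMUSG00000074637, 34650405 to 34652461, plus strand). Its values were 36.0, 29.6, 34.6 and 34.4 CPM in PBS libraries 1 to 4 and 37.5, 61.3, 60.5 and 46.5 CPM in sIVs libraries 2 to 5. Unlike Sox9, it was clearly above PBS in sIVs library 5 and only slightly above in library 2. The log2 fold change was 0.61 ± 0.15 (SE, 95% interval 0.27 to 0.95, edgeR adjusted p = 0.168). Without sIVs library 2 it was 0.74 and passed (edgeR adjusted p = 0.0109), a setting in which 7.39% of all genes tested passed. Without sIVs libraries 3 and 4 it was 0.32 (edgeR adjusted p = 0.273). Sox2 lies inside Sox2ot, a noncoding gene on the same strand with 166 to 318 counts per library and a log2 fold change of 0.34, and how reads of both were divided is not given in the sources used here.

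Having every sIVs library above every PBS library was true of 2 of 9 members and of 4.42% of all genes tested. No member had every sIVs library below every PBS library, against 3.36% of all genes tested.

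**Figure D2:**
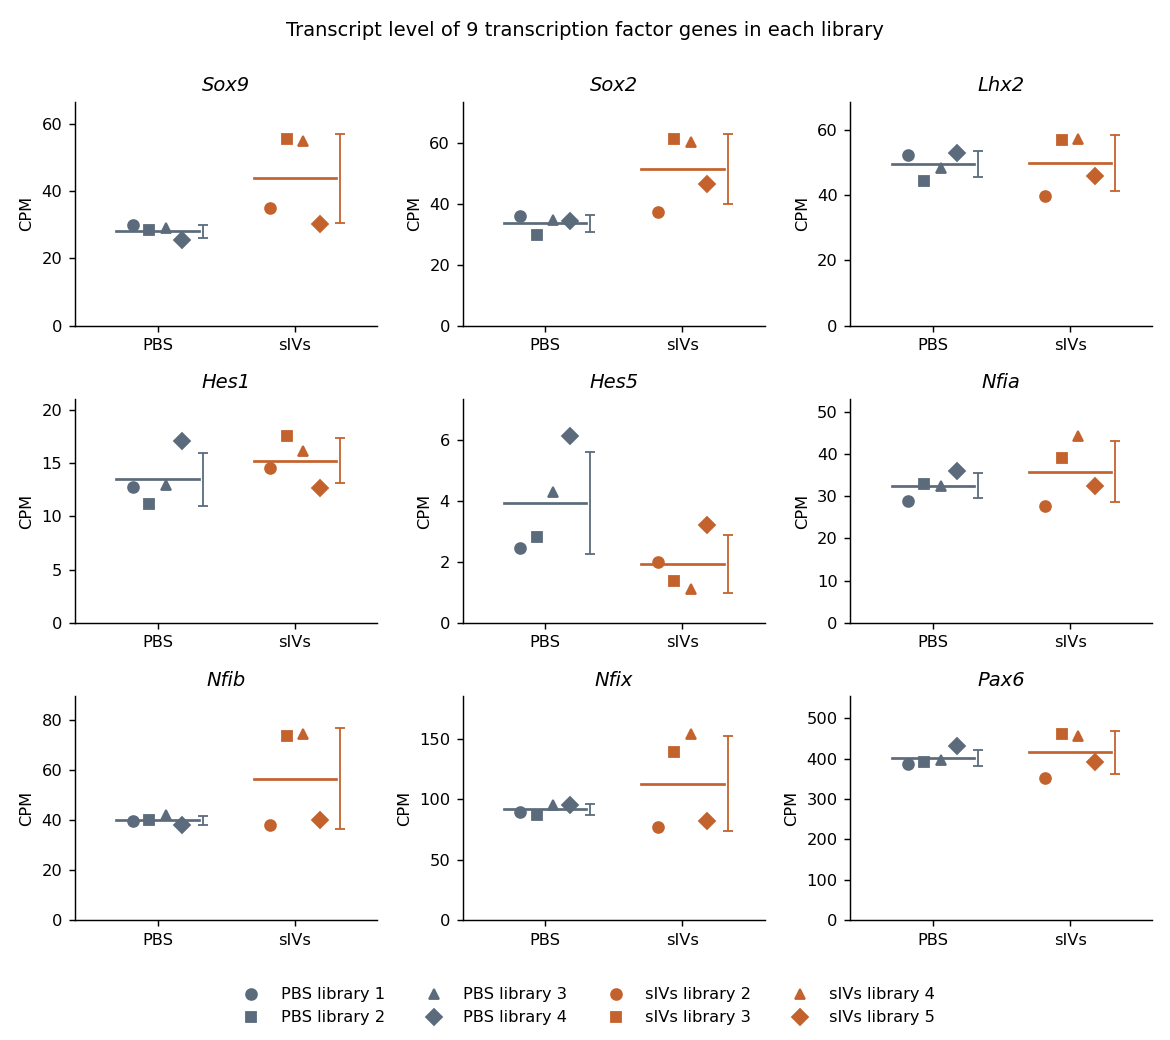
CPM of each gene in the 4 PBS and 4 sIVs libraries, with the group mean as a horizontal bar and its SD as the error bar beside it. Sox9 and Sox2 show no overlap between groups, Nfib and Nfix split the sIVs group into libraries 3 and 4 and libraries 2 and 5, and Hes5 is the one gene whose sIVs mean is below its PBS mean.

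The Notch-effector pair had fold changes of opposite sign, and neither passed. Hes5, on chromosome 4 (ENSMUSG00000048001, 154960923 to 154962371, plus strand), stood at 2.45, 2.82, 4.30 and 6.12 CPM in PBS libraries 1 to 4 and at 2.01, 1.37, 1.10 and 3.22 CPM in sIVs libraries 2 to 5. In all, 3 of the 4 sIVs libraries were below every PBS library, and sIVs library 5 lay within the PBS range. The counts behind these values were low, 38, 44, 62 and 86 in PBS and 30, 22, 20 and 54 in sIVs. The log2 fold change was -1.02 ± 0.39 (SE, 95% interval -1.89 to -0.15, edgeR adjusted p = 0.275). Leaving out sIVs libraries 3 and 4 gave -0.57 (edgeR adjusted p = 0.538). The PBS libraries themselves spread widely for Hes5: PBS library 4 held the most Hes5 and the least reactive glia signal (list median -0.62 on the log2 scale relative to the PBS mean), and PBS libraries 1 and 2 the least Hes5 with list medians of 0.34 and 0.43. PBS library 4 also had the highest cone and ganglion cell list medians among PBS (0.36 and 0.26). In sIVs libraries 2 to 5 the reactive glia medians were 0.63, 1.80, 1.92 and 1.22, and library 5 held more Hes5 than PBS libraries 1 and 2. Whether Hes5 goes with the reactive glia list was not tested. Without PBS library 4 the log2 fold change of Hes5 was -0.73.

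Hes1, on chromosome 16 (ENSMUSG00000022528, 30064384 to 30067796, plus strand), stood at 12.7, 11.2, 12.9 and 17.1 CPM in PBS libraries 1 to 4 and at 14.6, 17.5, 16.2 and 12.6 CPM in sIVs libraries 2 to 5. The groups overlapped. Its log2 fold change was 0.18 ± 0.15 (SE, 95% interval -0.17 to 0.52, edgeR adjusted p = 0.611). The difference between the fold changes of Hes5 and Hes1 was not tested.

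The 3 nuclear factor I members shared a high level in sIVs libraries 3 and 4. Nfib, on chromosome 4 (ENSMUSG00000008575, 82290173 to 82705750, minus strand), stood at 39.7, 39.8, 42.1 and 37.9 CPM in PBS libraries 1 to 4 and at 38.1, 73.6, 74.5 and 40.0 CPM in sIVs libraries 2 to 5. The sIVs group thus held a pair of libraries inside the PBS range and a pair far above it. The log2 fold change was 0.51 ± 0.22 (SE, 95% interval 0.02 to 0.99, edgeR adjusted p = 0.313). Leaving out sIVs libraries 3 and 4 gave -0.032 (edgeR adjusted p = 0.912).

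Nfix, on chromosome 8 (ENSMUSG00000001911, 84699876 to 84800344, minus strand), stood at 89.4, 86.5, 94.96 and 95.3 CPM in PBS libraries 1 to 4 and at 76.5, 139, 154 and 81.7 CPM in sIVs libraries 2 to 5. Here the other sIVs pair, libraries 2 and 5, lay below every PBS library, so the group straddled PBS on both sides. The log2 fold change was 0.30 ± 0.21 (SE, 95% interval -0.17 to 0.77, edgeR adjusted p = 0.521). Leaving out sIVs libraries 3 and 4 gave -0.21 (edgeR adjusted p = 0.263).

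Nfia, on chromosome 4 (ENSMUSG00000028565, 97772734 to 98118874, plus strand), was the family member of smallest fold change. It stood at 28.9, 32.8, 32.3 and 35.9 CPM in PBS libraries 1 to 4 and at 27.7, 39.0, 44.1 and 32.3 CPM in sIVs libraries 2 to 5, with a log2 fold change of 0.14 ± 0.14 (SE, 95% interval -0.17 to 0.45, edgeR adjusted p = 0.66). Leaving out sIVs libraries 3 and 4 gave -0.11 (edgeR adjusted p = 0.706), and leaving out sIVs library 4 alone gave 0.024 (edgeR adjusted p = 0.969). An antisense neighbour, E130114P18Rik, overlaps Nfia with 185 to 417 counts per library, and the strand setting of the counting is not given in the sources used here. Nfic, the family gene outside the 9, stood at 216 to 227 CPM in PBS, against 222, 228, 227 and 267 CPM in sIVs libraries 2 to 5 (log2 fold change 0.09, edgeR adjusted p = 0.589), with its highest value in sIVs library 5.

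Lhx2 and Pax6, homeobox genes of the early eye field, had the fold changes closest to 0. Lhx2, on chromosome 2 (ENSMUSG00000000247, 38339281 to 38369733, plus strand), stood at 52.4, 44.4, 48.4 and 53.1 CPM in PBS libraries 1 to 4 and at 39.9, 57.0, 57.2 and 45.9 CPM in sIVs libraries 2 to 5. Its log2 fold change was 0.01 ± 0.12 (SE, 95% interval -0.26 to 0.29, edgeR adjusted p = 0.972). The interval thus holds folds from 0.836 to 1.22. Pax6, on the same chromosome (ENSMUSG00000027168, 105668900 to 105697364, plus strand), stood at 387, 392, 397 and 431 CPM in PBS libraries 1 to 4 and at 353, 462, 457 and 391 CPM in sIVs libraries 2 to 5. Its log2 fold change was 0.05 ± 0.10 (SE, 95% interval -0.18 to 0.27, edgeR adjusted p = 0.852), and the interval holds folds from 0.885 to 1.21. For both genes sIVs libraries 3 and 4 were above every PBS library and sIVs library 2 below, and the SD was wider in sIVs than in PBS (52.9 against 19.7 CPM for Pax6, n = 4 each). Leaving out sIVs libraries 3 and 4 gave -0.21 for Lhx2 (edgeR adjusted p = 0.378) and -0.11 for Pax6 (edgeR adjusted p = 0.547).

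Read by library, sIVs library 3 had 8 of 9 members above every PBS library, all but Hes5, against 31.8% of all genes tested. In sIVs library 4 there were 7 of 9, all but Hes5 and Hes1, against 32.4%. In sIVs libraries 2 and 5 there were 2 of 9, Sox9 and Sox2, against 21.7% and 29.8%. Below every PBS library stood Lhx2, Hes5, Nfia, Nfix and Pax6 in sIVs library 2 (5 of 9, against 21.2% of all genes), Hes5 alone in libraries 3 and 4 (against 32.5% and 33.1%), and Nfix alone in library 5 (against 29.1%). The libraries rich in 7 or 8 members were thus the pair with low rod markers. Over the 9 members the median log2 fold change was 0.18, against -0.01 over all genes tested, and it was -0.11 without sIVs libraries 3 and 4.

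**Figure D3:**
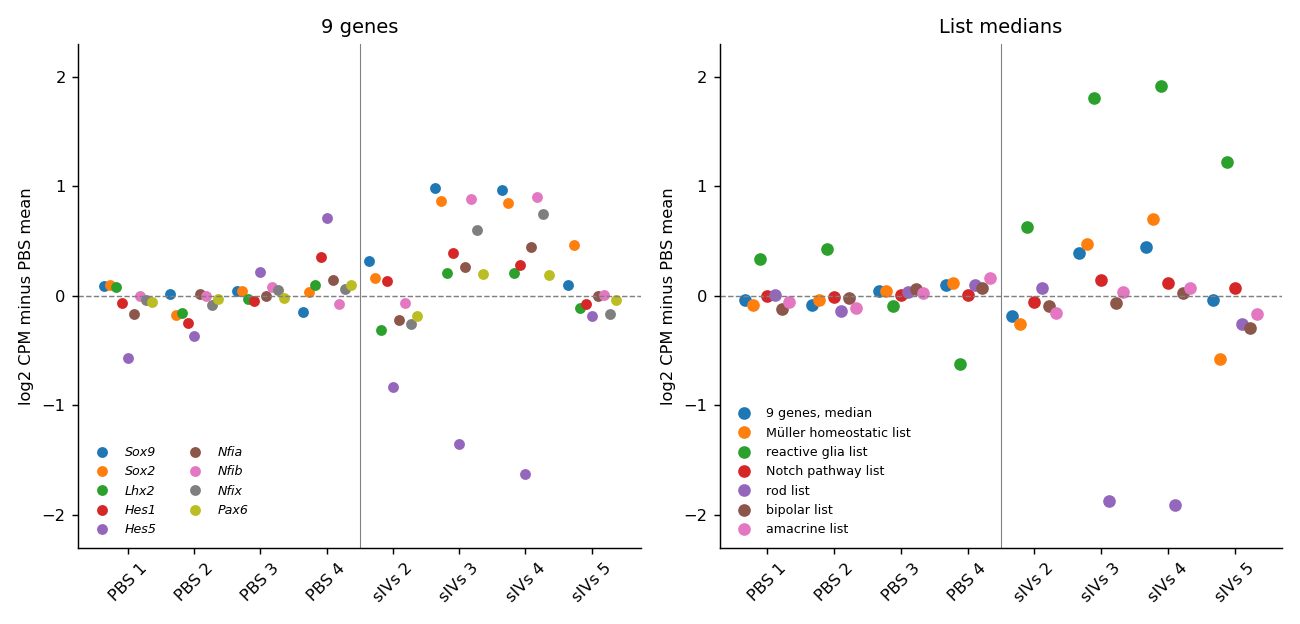
Left, log2 CPM of each of the 9 genes minus its PBS mean, by library; right, the median of the same quantity over the 9 genes and over the other 6 gene lists named in the key. The rod list stands at -1.88 and -1.91 in sIVs libraries 3 and 4, where 8 of the 9 genes are above 0 and Hes5 is below.

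Other scalings set the members against the cells around them. With libraries scaled by 40 bipolar, amacrine, horizontal and ganglion cell markers, the log2 fold changes were 0.70 for Sox9 (edgeR adjusted p = 0.0842), 0.69 for Sox2 (0.0682), 0.56 for Nfib (0.17) and -0.87 for Hes5 (0.362). With libraries scaled by 12 Müller glia markers they were 0.61 for Sox9 (edgeR adjusted p = 0.433), 0.63 for Sox2 (0.473), 0.46 for Nfib (0.921) and -0.82 for Hes5 (0.9999). No member changed direction under either scaling, and none passed. Of all genes tested, 0% passed with the neuron marker scaling and 0.643%, all higher, with the Müller glia marker scaling. Among the 40 neuron markers was Tpm3, on the horizontal cell list. It was itself high in sIVs libraries 3 and 4, at 195 and 200 CPM against 102 to 112 CPM in PBS.

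**Figure D4:**
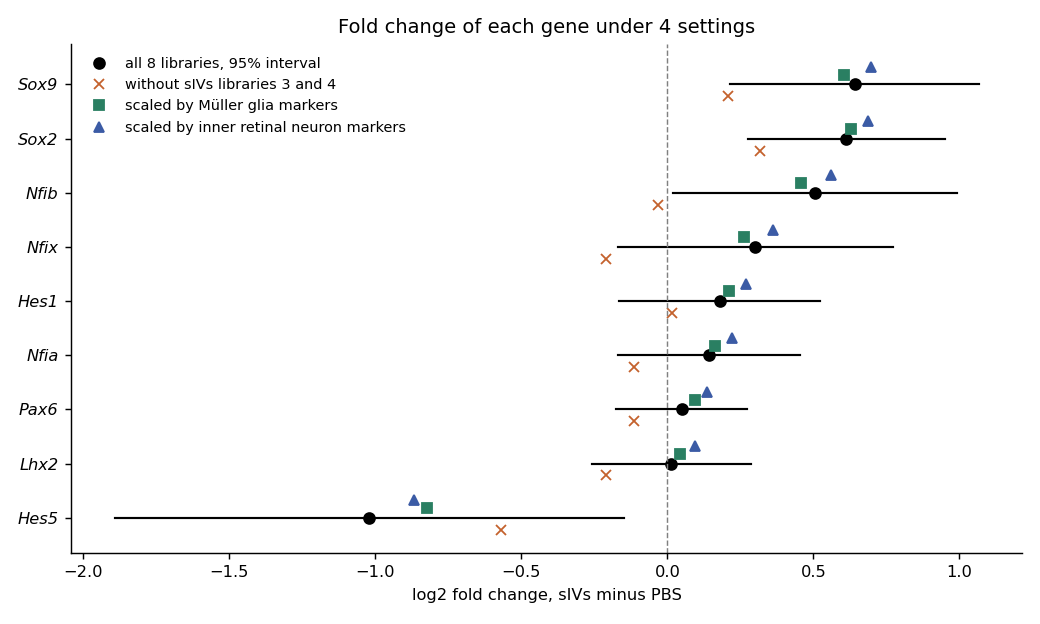
Log2 fold change (sIVs minus PBS) of each gene. Black points and lines are the fit to all 8 libraries and its 95% interval, crosses leave out sIVs libraries 3 and 4, and squares and triangles scale the libraries by Müller glia or inner retinal neuron markers. Crosses for Nfib, Nfix, Nfia, Pax6, Lhx2 and Hes5 lie below 0.

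Müller glia markers themselves were divided, by gene and by library. Of 12 listed homeostatic genes, 0 passed edgeR over all genes, 8 had a positive and 4 a negative log2 fold change, and 2 had every sIVs library below every PBS library (against 3.36% of all genes tested). Their summed level was 5874 to 7058 CPM in PBS and 4128 to 6669 CPM in sIVs. Their library medians in sIVs libraries 2 to 5 were -0.26, 0.48, 0.70 and -0.57, on the log2 scale relative to the PBS mean. Without sIVs libraries 3 and 4, 1 of the 12 genes had a positive log2 fold change and the list median was -0.45. The 2 genes with every sIVs library below PBS were Glul, which encodes the glutamine synthetase that clears glutamate, and Abca8a, a lipid transporter gene. Glul stood at 2002, 1923, 2546 and 2719 CPM in PBS libraries 1 to 4 and at 1640, 986, 1093 and 1003 CPM in sIVs libraries 2 to 5 (log2 fold change -0.96, edgeR adjusted p = 0.153). Glul and Sox9, both used as Müller glia markers, thus lay on opposite sides of PBS in all 4 sIVs libraries. Abca8a had a log2 fold change of -0.66 (edgeR adjusted p = 0.226). Rlbp1, a retinoid-binding protein gene, had 281 to 450 CPM in PBS, against 267, 510, 543 and 123 CPM in sIVs libraries 2 to 5. Slc1a3, the glial glutamate transporter gene, had 249 to 260 CPM in PBS, against 252, 468, 503 and 205 CPM in sIVs. In sIVs library 5 Rlbp1 and Slc1a3 were below every PBS library while Sox2 was above.

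Reactive glia genes were often above PBS. Of 14 listed, 0 passed edgeR, 13 had a positive log2 fold change and 8 had every sIVs library above every PBS library (against 4.42% of all genes tested), with a median log2 fold change of 1.36. Their library medians in sIVs libraries 2 to 5 were 0.63, 1.80, 1.92 and 1.22 relative to the PBS mean. Tnfrsf12a, a cytokine receptor gene, and Nes, which encodes an intermediate filament also used by progenitors, had the smallest p (log2 fold change 1.62 and 0.80, edgeR adjusted p = 0.0868 each). Gfap, the filament of reactive glia, had a log2 fold change of 1.26 (edgeR adjusted p = 0.198). Among 7 astrocyte markers, 0 passed. Pax2, the transcription factor of optic nerve astrocytes, was near 1 CPM (0.416 to 1.29 CPM in PBS, 0.955 to 1.86 CPM in sIVs). Aldh1l1, an astrocyte folate enzyme gene that Müller glia also make, stood at 24.4 to 37.3 CPM in PBS, against 39.2, 151, 160 and 56.9 CPM in sIVs libraries 2 to 5 (log2 fold change 1.70, edgeR adjusted p = 0.167). Gja1, the gap junction gene connexin 43, had a log2 fold change of -0.39 (edgeR adjusted p = 0.4).

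In the Notch pathway, which acts upstream of Hes1 and Hes5, all 32 listed genes were tested and 0 passed edgeR. Log2 fold changes were positive for 22 and negative for 10, with a median of 0.10 against -0.01 over all genes tested. Every sIVs library was above every PBS library for 3 of 32, against 4.42% of all genes. Among the 3 were Aph1a, a subunit of the gamma-secretase that releases the Notch intracellular domain, and Adam17, a protease that sheds membrane proteins. Aph1a stood at 35.5, 35.1, 36.5 and 32.6 CPM in PBS libraries 1 to 4 and at 38.8, 47.7, 53.4 and 44.5 CPM in sIVs libraries 2 to 5 (log2 fold change 0.40, edgeR adjusted p = 0.168). For Adam17 the log2 fold change was 0.21 (edgeR adjusted p = 0.244).

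Other Notch genes were looked at after their values were seen, because Hes5 and Hes1 differed in sign. Rbpj, the DNA-binding partner of Notch, stood at 44.6 to 50.2 CPM in PBS and 46.5 to 49.7 CPM in sIVs. Nrarp, a Notch target that feeds back on the pathway, stood at 2.83, 2.69, 4.23 and 3.49 CPM in PBS libraries 1 to 4 and at 2.68, 2.24, 1.99 and 2.92 CPM in sIVs libraries 2 to 5 (log2 fold change -0.43, edgeR adjusted p = 0.381). Like Hes5 it was below every PBS library in sIVs libraries 2, 3 and 4, against 21.2%, 32.5% and 33.1% of all genes tested. In sIVs library 2 the margin was slight, 2.68 against 2.69 CPM in PBS library 2. Nrarp counts were low, 44, 42, 61 and 49 in PBS and 40, 36, 36 and 49 in sIVs. For the targets Hey1, Hey2 and Heyl the log2 fold change was 0.13 (edgeR adjusted p = 0.616), -0.09 (edgeR adjusted p = 0.753) and 0.30 (edgeR adjusted p = 0.677). Jag1, a Notch ligand gene, stood at 116 to 129 CPM in PBS, against 125, 45.9, 40.0 and 110 CPM in sIVs libraries 2 to 5 (edgeR adjusted p = 0.418). Its lowest values were in the 2 libraries with low rod markers, and sIVs library 5 was also below PBS.

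Factors that drive neurogenesis or reprogramming were mostly low or overlapping between groups. Of 16 listed, 14 were tested and 0 passed, 9 with a positive and 5 with a negative log2 fold change. Every sIVs library was above every PBS library for 1 of 14 (against 4.42% of all genes tested) and below for 0 of 14 (against 3.36%). The gene above was Myc, a growth factor-responsive gene. Myc stood at 2.64, 1.15, 1.11 and 1.14 CPM in PBS libraries 1 to 4. In sIVs libraries 2 to 5 it stood at 3.21, 8.82, 4.86 and 9.61 CPM (log2 fold change 2.12, edgeR adjusted p = 0.153). Neurog2, a proneural gene, stood at 3.01 to 4.62 CPM in PBS, against 2.81, 17.2, 14.5 and 9.19 CPM in sIVs libraries 2 to 5 (log2 fold change 1.51, edgeR adjusted p = 0.198).

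Among 18 retinal progenitor genes, 15 were tested and 0 passed, 11 with a positive and 4 with a negative log2 fold change. The 4 negative ones were Rax (-0.15), Six6 (-0.10), Meis1 (-0.16) and Meis2 (-0.09). Every sIVs library was above every PBS library for 1 of 15 (against 4.42% of all genes tested) and below for 1 of 15 (against 3.36%). The gene below was Meis1, at 66.7 to 68.3 CPM in PBS, against 64.5, 56.4, 57.9 and 62.7 CPM in sIVs libraries 2 to 5 (edgeR adjusted p = 0.298). Ccnd1, the cyclin gene of dividing progenitors, was above every PBS library in all 4 sIVs libraries, at 24.2 to 28.5 CPM in PBS and 40.3, 83.0, 68.9 and 41.0 CPM in sIVs libraries 2 to 5 (log2 fold change 1.14, edgeR adjusted p = 0.153). Ccnd2, a second cyclin gene of the same class, had a log2 fold change of 0.65 (edgeR adjusted p = 0.249) with high values in sIVs libraries 3 and 4. Cell cycle genes as a list summed to 174 and 178 CPM in sIVs libraries 3 and 4, to 115 and 127 CPM in sIVs libraries 2 and 5, and to 104 to 118 CPM in PBS. Of the 12 tested, 0 passed, 12 had a positive log2 fold change and 9 an unadjusted p under 0.05 (against 15.2% of all genes tested), with a median of 0.78.

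Of 16 genes from the members' own families, 8 were tested and 0 passed, 6 with a positive and 2 with a negative log2 fold change. Sox8, of the same SOX subgroup as Sox9, stood at 30.9 to 34.9 CPM in PBS, against 34.4, 46.5, 48.0 and 26.8 CPM in sIVs libraries 2 to 5 (log2 fold change 0.24, edgeR adjusted p = 0.522). Lhx4 had a log2 fold change of 0.19 (edgeR adjusted p = 0.503) and Lhx1 of -0.39 (edgeR adjusted p = 0.512), the LIM homeobox relatives of smallest p. Lhx3 and Lhx9 were at 0.03 and -0.09. Hes6, which opposes Hes1, stood at 0.09 and Pax2 at 0.41 on the same scale. Sox1, Sox3, Sox10, Hes2, Hes3, Hes7, Pax3 and Pax7 were under 1 CPM in every library and were not tested.

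Markers of neurons that also make Pax6 or Sox2 had medians below 0, as had all genes tested (-0.01). Amacrine markers had a median log2 fold change of -0.06, horizontal cell markers of -0.03 and ganglion cell markers of -0.20, and 0 of the 28 tested passed. Of these, 3 ganglion cell markers had every sIVs library below every PBS library, against 3.36% of all genes tested. By library, amacrine medians were 0.04 and 0.07 in sIVs libraries 3 and 4, on the log2 scale relative to the PBS mean. Horizontal cell medians there were 0.04 and 0.28, and ganglion cell medians -0.21 and -0.09. Horizontal cell markers, Tpm3 among them, summed to 394 and 423 CPM in these 2 libraries and to 284 to 307 CPM in PBS. In sIVs libraries 2 and 5 all these medians were below 0. Their part in the Pax6 and Sox2 values was not tested.

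Likeness of pattern was measured over the 8 libraries as the root-mean-square difference of centred log2 CPM, among 14202 genes, for the 3 members that varied most. The nearest to Sox9 were Car5b, a mitochondrial carbonic anhydrase gene, Sspn, a gene of the dystrophin complex, and Fam114a1, at differences of 0.0450, 0.0565 and 0.0800. Car5b stood at 16.5, 15.8, 16.3 and 15.0 CPM in PBS libraries 1 to 4 and at 19.3, 31.4, 30.2 and 15.8 CPM in sIVs libraries 2 to 5. Nearest to Nfib were Ddr1, a collagen receptor gene, Fam234a and Tpm3, a tropomyosin gene, at 0.0552, 0.0574 and 0.0713. For Hes5 the nearest genes, Acoxl, Cldn19 and Sgk1, lay further off, at 0.243, 0.315 and 0.338. Counts were low for Hes5 (20 to 86 per library) and Acoxl (11 to 57). The part of counting noise in these distances was not tested. Among the members, Lhx2 and Pax6 had the smallest difference at 0.0796, then Nfia and Pax6 at 0.0987, Nfib and Nfix at 0.120, and Sox9 and Nfib at 0.129. This measure is small for any pair of genes that vary little. Pax6, Lhx2 and Nfia had the smallest SDs of log2 CPM among the members, at 0.132, 0.183 and 0.220.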

How the data were processed

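RNA was measured in 8 retina libraries. TRIzol-extracted RNA was selected by poly(A) tail for strand-marked, paired-end libraries, per the labels' protocols. Per the submitters' processing notes the build is mm10. Aligner, counter, annotation release and strand setting are not given in the sources used here. Unnormalised counts for 54532 genes were deposited by the authors. The deposited FPKM table held these counts scaled by gene length and library total times 1 constant per library, 0.930 to 1.03. How the submitters set it is unstated, but in each library it lay close to the reciprocal of the TMM factor used here (0.932 to 1.04). Coordinates of all 9 members in the deposited table are those of GENCODE M21 (GRCm38).

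The quasi-likelihood test of edgeR 4.0.16 (R 4.3.3) was run on the counts: filterByExpr on the group (17725 genes, all 9 members kept), TMM scaling, glmQLFit and glmQLFTest with the group as the only term, and Benjamini-Hochberg adjustment over all genes tested, threshold 0.05. Standard errors came from the F statistic, and 95% intervals from its degrees of freedom. List medians by library used log2 CPM with a prior count of 2. The test was checked on simulated counts. Totals of 14640235 to 16989737 counts per library give 5268 to 8270 counts for Pax6 and 20 to 86 for Hes5.

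The members and lists were chosen with earlier results of these data known. The naming rule took all 9 members, the 2 tested genes of smallest p from the Notch, neurogenic, progenitor, family, Müller homeostatic, reactive glia and astrocyte lists, all tested family relatives, Glul, Rlbp1, Slc1a3 and Gfap, and the 3 genes nearest in pattern to the 3 members that varied most, among named genes with at least 1 CPM in the higher group. Rbpj, Nrarp, Hey1, Hey2, Heyl, Jag1, Kdr, Rax, Six6, Meis1 and Meis2 were named after their values were seen. Some genes the rule names are not reported here. Alternatives were DESeq2 1.42.0, limma-voom and limma 3.58.1 on log2(FPKM + 0.1) and log2(FPKM + 1), other scalings, filters and thresholds, blocks by replicate number, and libraries left out. The 6-library fit without a block was added after seeing the data. No library repeated another: the closest pair, sIVs library 2 with PBS library 1, still differed by a chi-square of 3.68 per gene.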

Additional observations from a re-analysis of the deposited data

How the results depend on the processing

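Across 23 alternatives, 195 of 207 member fold changes kept their direction and their side of the threshold, 2 kept their direction and newly passed (Sox2 by DESeq2 and without sIVs library 2), and 10 turned direction. Sox9, Sox2, Hes1 and Hes5 kept their direction in all 23, over log2 ranges of 0.21 to 0.82, 0.32 to 0.74, 0.01 to 0.31 and -1.57 to -0.57 (lowest edgeR, DESeq2 or limma adjusted p of 0.0516, 0.0109, 0.388 and 0.158). Without sIVs libraries 3 and 4, log2 fold changes turned to -0.21 for Lhx2, -0.11 for Nfia, -0.032 for Nfib, -0.21 for Nfix and -0.11 for Pax6. With each library left out, Lhx2 ranged from -0.059 to 0.11, turning without PBS replicate 2 (-0.04) and sIVs replicates 3 (-0.06) and 4 (-0.059). Pax6 ranged from -0.0070 to 0.12, turning without sIVs replicates 3 (-0.0070) and 4 (-0.001). The cause was not tested.

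Members past the threshold numbered 0, 1 with DESeq2, and 0 to 1 with each library left out. All genes past it numbered 0, 551 with DESeq2, 114 with Müller glia marker scaling, 152 with no low count filter, 3 without sIVs libraries 3 and 4, 11 at a threshold of 0.1, and 0 to 1331 with each library left out, the highest without sIVs library 2. At an unadjusted p under 0.05 the edgeR fit to all libraries had 2702 genes and 4 members. The replicate block by title numbers (6 libraries) gave 0 members and 0 genes, as did the same 6 libraries without a block, and the replicate block by biosample numbers gave 0 and 0. Same-numbered libraries had correlations of deviations of -0.06 to 0.05 by title and -0.07 to 0.10 by biosample number. Of the libraries, 1 of 6 and 4 of 8 correlated best with their own number. With so few libraries these values cannot decide whether the numbers mark pairs. The numbers were not taken as pairs because nothing in the labels says that they pair the libraries.

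Depth limits Hes5 most, at 20 to 86 counts per library.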
